A study of Mus musculus with 8 samples.

Results

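Wwc1 and 9 other genes of the Hippo pathway were followed in neural stem cells (NSCs) and cortical astrocytes that carried the S89G-DMP1 mutation or were wild type (WT). The 10 genes are Wwc1, Wwc2, Lats1, Lats2, Yap1, Wwtr1, Tead1, Tead2, Tead3 and Amotl2, and each symbol was matched to its Ensembl mouse gene identifier. They made up 10 of 47729 genes in the NSC count table and 10 of 40562 genes in the astrocyte count table. The genes were chosen on measured values, with the difference in Wwc1 between S89G-DMP1 and WT in these same libraries known, so that their differences between genotypes are given as a description, with no p-value and nothing read from how many pass a threshold.

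S89G-DMP1 mice carry a knock-in point mutation that replaces the glycosylated serine of the N-terminal part of DMP1, an extracellular matrix proteoglycan, with glycine. The line was made by homologous recombination in C57BL/6J embryonic stem cells, which were injected into Balb/c blastocysts, and was crossed to an FLP deleter strain. Controls were wild-type C57BL/6 mice. The labels give strain C57BL/6 and an age of 10 weeks for every sample. Astrocytes came from the cortex of S89G-DMP1 mice (1 library) and WT mice (1 library) and were grown in DMEM with fetal bovine serum. NSCs came from the sub-ventricular zone of S89G-DMP1 mice (3 libraries) and WT mice (3 libraries) and were grown as neurospheres in DMEM/F12 with N2 supplement. Nothing in the labels says whether the 3 libraries of a genotype came from separate animals or cultures, and p-values may therefore measure technical spread only.

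The Hippo pathway is a kinase cascade that holds back growth. MST kinases with the adaptor SAV1 activate the LATS kinases, which phosphorylate the coactivators YAP (Yap1) and TAZ (Wwtr1) so that these are kept in the cytoplasm and degraded. YAP and TAZ that escape the kinases enter the nucleus and bind TEAD factors, which switch on genes such as Ccn1, Ccn2 and Ankrd1. WWC1, also called KIBRA, is a scaffold at cell junctions that binds the LATS kinases and the tumour suppressor NF2, and angiomotin proteins such as AMOTL2 bind YAP and TAZ directly. In the brain the pathway is known for its part in the growth of neural progenitors, and KIBRA for its part in memory.

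The letters at which TEAD factors are known to bind, GGAATG or CATTCC on the other strand, were looked for in the 250 bases before each transcription start that RefSeq lists on GRCm38.p6. These promoters bear on the results because members and targets of the pathway are described together. A match is a description of the letters and says nothing of binding. Of the 10 genes, 9 had a promoter in the table (not Tead1), and 5 of the 9 held at least 1 match: Wwc2, Yap1, Wwtr1, Tead3 and Amotl2. Over all 27025 genes with a promoter the share with a match was 14.4%, and over all 32851 promoters it was 12.6%. Of the 20 target genes described further on, 13 had a promoter and 5 of these held a match, Ccn1 and Crim1 among them. For Wwc1, Lats1, Lats2 and Tead2 the letters were not in this window. Stretches around the matches follow 5′ to 3′ on the strand of the gene, with the matched letters in capitals, together with the 100 bases just before the start of Wwc1, which hold none. Positions count back from the RefSeq start, which can lie inside the longer GENCODE gene model, as in Wwc2, Tead3 and Amotl2.

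Wwc1 (chr11:35980528-35980627, minus strand): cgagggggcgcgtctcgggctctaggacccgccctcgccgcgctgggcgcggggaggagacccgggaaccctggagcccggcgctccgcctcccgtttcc
Wwc2 (chr8:47990614-47990642, minus strand): ctcaGGAATGtggcggcgaGGAATGtgca
Yap1 (chr9:8004720-8004749, minus strand): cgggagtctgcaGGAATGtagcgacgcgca
Wwtr1 (chr3:57576029-57576058, minus strand): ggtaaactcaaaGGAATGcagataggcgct
Tead3 (chr17:28350702-28350730, minus strand): ccgggctCATTCCgtaCATTCCggccatc
Amotl2 (chr9:102717727-102717756, plus strand): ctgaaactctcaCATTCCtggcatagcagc
Ccn1 (chr3:145650071-145650100, minus strand): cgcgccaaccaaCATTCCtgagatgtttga
Crim1 (chr17:78200157-78200186, plus strand): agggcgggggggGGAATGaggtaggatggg

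In Wwc2 and Tead3 the letters occurred as a close pair, at positions -94 and -79 in Wwc2 and at -123 and -114 in the second of the 3 promoters listed for Tead3. A further Wwc2 match lay at -203, and the first Tead3 promoter held a match at -182. The single matches began at -141 in Yap1, -136 in the first of 2 overlapping promoters of Wwtr1, -65 in Amotl2, -103 in Ccn1 and -79 in Crim1. The printed stretches of Wwc2, Tead3 and Amotl2 thus lie within an exon of the GENCODE annotation, and those of Wwc1, Yap1, Wwtr1, Ccn1 and Crim1 lie outside annotated exons.

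The NSC libraries held 2354615 to 2588130 counted reads each, and the astrocyte libraries 13016924 (S89G-DMP1) and 14008670 (WT). Among NSC libraries of the same genotype the counts of a gene differed little more than counting error, with a chi-square per gene of 1.07 to 1.51, against 3.17 to 4.05 between genotypes. Dmp1, the mutated gene, had 18, 21 and 16 counts in the WT NSC libraries and 6, 3 and 5 in the S89G-DMP1 ones, and in astrocytes 119 counts in the mutant library and 2 in the WT one. The 8 neural stem cell markers of the NSC libraries summed to 3908 to 4131 CPM (counts scaled to the TMM-adjusted library total) in WT and 4354 to 4447 CPM in the mutant, and the microglia markers Cx3cr1, Csf1r, Ptprc and Tyrobp and the fibroblast markers Col1a2, Dcn and Lum were at 0 in all 6 libraries. Mural cell and endothelial markers summed to at most 5.21 and 1.68 CPM in any NSC library. In most astrocyte markers the WT astrocyte library went against its label. By TMM, 5 of the 7 were at least 2-fold higher in the mutant library. Slc1a3 and Aqp4 had 8 counts each in WT, against 3877 and 4051 with the mutation. S100b went the other way, with 64 counts in WT and 30 in the mutant, and Gja1, with 1165 and 1913, lay within 2-fold. Gja1 held 92.0 CPM of the WT sum of the list. The 7 astrocyte markers summed to 113 CPM in WT and 915 CPM in mutant astrocytes, the 6 fibroblast markers to 5025 and 2050, the 5 mural cell markers to 3253 and 3930, the 5 endothelial markers to 159 and 14.9, and the 5 microglia markers to 302 and 511. The mural sum hides opposite ratios, since Acta2 was higher in the mutant library and Rgs5, Pdgfrb and Des were lower, with 39, 2276 and 17 counts there against 2431, 11765 and 379 in WT. The endothelial sum was mostly Cdh5, at 151 CPM in WT and 1.60 CPM in the mutant. Kdr went the other way, with 76 counts in WT and 184 in the mutant. Pecam1, Tie1 and Cldn5 had at most 16 counts in either library. Every astrocyte value that follows sets 1 library against this WT library, and no value without it can be had. The part of these other cells in the astrocyte results was not tested.

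In NSCs, Wwc1 was the member whose genotypes lay furthest apart for its spread, and it was lower with the mutation. Wwc1 lies on chromosome 11 (chr11:35838400-35980527, minus strand, GRCm38, the whole gene with its introns). Its level was 198, 233 and 201 CPM in the 3 WT libraries and 131, 134 and 131 CPM in the 3 S89G-DMP1 libraries, from 469, 600 and 503 counts and from 311, 313 and 326 counts. All 3 mutant libraries lay below all 3 WT libraries, and they lay closer to each other (132 ± 1.78 CPM, SD, n = 3) than the WT libraries did (211 ± 19.6 CPM, SD, n = 3). The log2 fold change of S89G-DMP1 over WT was -0.68 ± 0.07 (SE), a 1.60-fold lower level, and it stayed between -0.72 and -0.60 when each library was left out in turn. In the TPM values that the authors deposited, which are scaled per length, Wwc1 averaged 121 ± 15.6 in WT and 73.4 ± 2.76 in S89G-DMP1 NSCs (SD, n = 3 each). In these bulk cultures, fewer cells of a type and less RNA per cell cannot be told apart.

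Its paralogue Wwc2, which encodes a scaffold of the same family, was less abundant and its groups overlapped. Wwc2 was at 62.4, 56.3 and 46.3 CPM in WT and at 45.5, 47.5 and 42.1 CPM in S89G-DMP1 NSCs. The lowest WT library lay within the mutant range, and the log2 fold change was -0.29 ± 0.11 (SE). Without WT replicate 3, the lowest of its group, the value was -0.40. The exons of Wwc2 overlap those of Cldn22 on the opposite strand over 995 bases, and since the sources used here do not state whether counting used strand, a small part of its reads could belong to that gene.

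The LATS kinases, which phosphorylate YAP and TAZ, were close between genotypes in NSCs. Lats1 was at 108, 122 and 103 CPM in WT and at 118, 120 and 125 CPM in S89G-DMP1, a log2 fold change of 0.13 ± 0.08 (SE). Lats2 was at 37.1, 34.2 and 35.5 CPM in WT and at 36.2, 24.8 and 26.1 CPM in S89G-DMP1 (-0.29 ± 0.14, SE). The groups overlapped for both kinases. For Lats2, S89G-DMP1 replicate 1 lay among the WT libraries and the other two lay below them, and without it the value was -0.48. The exons of Lats2 share 2955 bases on the same strand with those of the gene model Gm49361, so that its counts are uncertain. The exons of Yap1 and Tead2 overlap those of Gm20416 and Cd37 on the opposite strand over only 116 and 13 bases.

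The coactivators differed least. Yap1 was at 61.1, 63.7 and 65.1 CPM in WT and at 59.0, 59.1 and 61.4 CPM in S89G-DMP1 NSCs (-0.08 ± 0.10, SE), and its groups overlapped by a single library. Wwtr1 was at 60.3, 69.5 and 62.7 CPM in WT and at 67.4, 63.3 and 52.9 CPM in S89G-DMP1 (-0.07 ± 0.10, SE). Of its mutant libraries, 2 lay within the WT range and 1 below it, and without S89G-DMP1 replicate 3 the value was 0.02.

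Among the TEAD factors, the DNA-binding partners of YAP and TAZ, Tead3 stood apart. Tead3 was at 17.3, 17.9 and 16.8 CPM in WT and at 7.16, 10.3 and 10.8 CPM in S89G-DMP1 NSCs. All mutant libraries lay below all WT libraries, S89G-DMP1 replicate 1 the lowest of them, and the log2 fold change was -0.87 ± 0.21 (SE), a 1.83-fold lower level. Tead1, the most abundant TEAD factor, was at 231, 233 and 201 CPM in WT and at 259, 238 and 219 CPM in S89G-DMP1 (0.10 ± 0.07, SE), and Tead2 was at 12.2, 13.6 and 9.98 CPM in WT and at 11.8, 9.42 and 9.23 CPM in S89G-DMP1 (-0.24 ± 0.23, SE). The groups overlapped for both. Taken per kilobase of exon, Tead1 held 75.4% to 76.9% of the summed level of Tead1 to Tead4 in the WT libraries and 82.0% to 83.9% in the mutant ones. By the deposited TPM the ranges were lower and overlapped, at 44.3% to 49.7% and 48.2% to 56.9%.

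Amotl2, an angiomotin that binds YAP and TAZ at junctions, was also lower in every mutant library. Its level was 26.5, 29.1 and 27.6 CPM in WT and 13.5, 23.1 and 23.3 CPM in S89G-DMP1 NSCs, a log2 fold change of -0.47 ± 0.16 (SE). S89G-DMP1 replicate 1 lay far below the other two. Without it the value was -0.26, and without WT replicate 2 or WT replicate 3 it was -0.44 or -0.48.

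In edgeR's quasi-likelihood fit over all genes (Benjamini-Hochberg adjusted p of 0.05), 15.8% of the 11194 tested genes passed, 7.08% higher and 8.76% lower. Of the 10 genes, 3 lay past that threshold, Wwc1, Tead3 and Amotl2, all lower. This contrast was used to choose them, so that the count describes the choice and nothing is read from it. Their median log2 fold change was -0.26, beside 0.00 over all tested genes, and it describes the choice in the same way. Among markers that moved with genotype in these cultures, the astrocyte markers Slc1a3, Aldh1l1 and Gja1 rose, with their list at 1369 to 1424 CPM in WT and 1869 to 1938 CPM in S89G-DMP1. The neural stem cell markers Egfr and Fabp7 rose as well. The neuron markers Syt1 and Gap43 fell, with their list at 1963 to 2124 CPM in WT and 1859 to 1895 CPM in S89G-DMP1. Pdgfra, from the fibroblast list, fell, with that list at 14.4 to 20.4 CPM in WT and 8.82 to 12.2 CPM in S89G-DMP1. This list was mostly Pdgfra, since Col1a1 and Col3a1 had at most 6 counts in a library and Col1a2, Dcn and Lum had 0. The fall is therefore that of 1 gene and does not measure fibroblasts. The part of these markers in the member values was not tested.

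**Figure D1:**
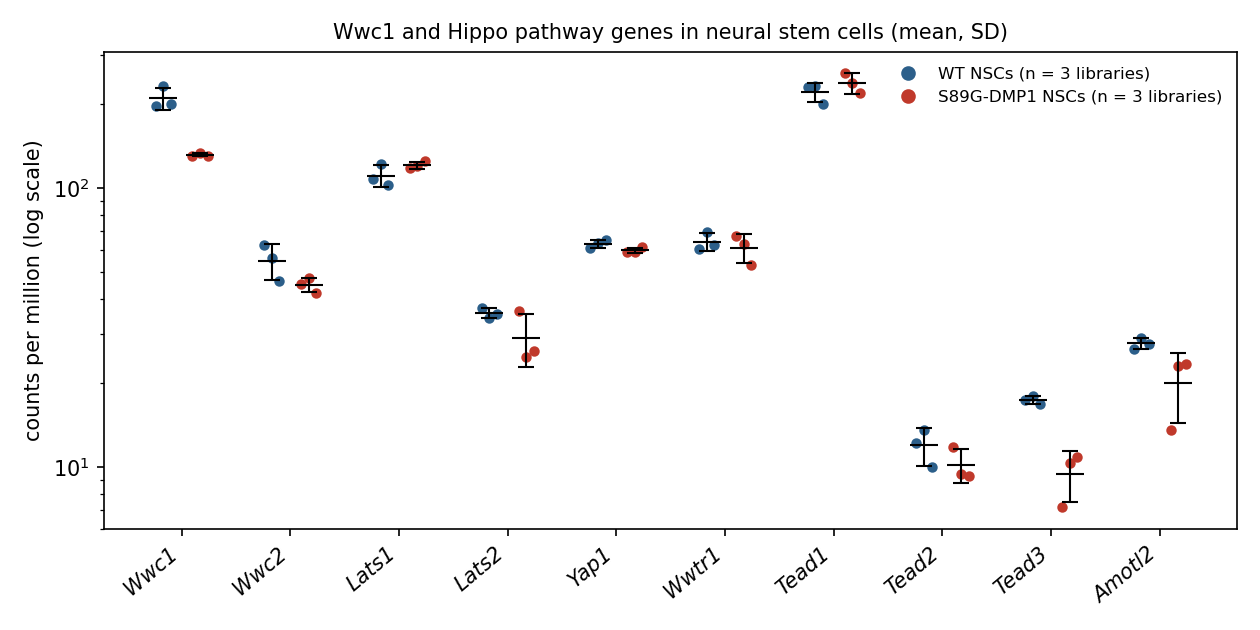
CPM (log scale) of the 10 genes in each NSC library, WT in blue and S89G-DMP1 in red, with the mean and SD over 3 libraries in black. The red points of Wwc1 (131 to 134), Tead3 (7.16 to 10.8) and Amotl2 (13.5 to 23.3) all lie below the blue ones, while those of the other 7 genes overlap. The members were chosen with this contrast known. Of the other pathway genes tested, 25 of 72 had groups that did not overlap, in either direction, and the share over all genes was not counted.

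In the astrocyte cultures Wwc1 lay the other way. It had 6782 counts (471 CPM) in the mutant and 474 counts (37.4 CPM) in the WT library, a log2 ratio of 3.65 with a 95% counting interval of 3.52 to 3.79, or 12.5-fold higher. The interval is the exact binomial one for a ratio of counts and covers counting error only, since there is 1 library per genotype and no replicate check. With library totals as the scale in place of TMM factors, the ratio was 3.94. That scale lifted the median log2 ratio of all 15680 genes counted from 0.01 to 0.30, and a ratio near 0 depends on the scale to that extent. Wwc2 had 2526 counts in the mutant and 2744 in the WT library, a log2 ratio of -0.31 by TMM and -0.01 by library size. Wwc1 therefore made up 90.4% of the summed FPKM of the pair in the mutant library and 37.6% in the WT library.

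The coactivators lay lower in the mutant astrocyte library. Yap1 had 1980 counts there and 4193 in the WT library, a log2 ratio of -1.27 (counting interval -1.35 to -1.19), which shrank to -0.98 by library size alone and then missed 2-fold. Wwtr1 had 4333 and 6889 counts (-0.85, or -0.56 by library size). Both stood below the median of all genes on either scale.

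The kinases and TEAD factors lay closer to the median of all genes. Lats1 had 1828 counts in the mutant and 1569 in the WT library (0.03), and Lats2 had 3799 and 4566 (-0.45). Tead1 had 7488 and 6373 counts (0.05), Tead2 684 and 415 (0.53), and Tead3 658 and 820 (-0.50). Amotl2 had 5678 counts in the mutant and 7348 in the WT library (-0.56). Lats1 and Tead1 were the members nearest to an equal level by TMM, and by library size alone they moved to 0.33 and 0.34, close to the 0.30 of all genes.

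Of the 10 genes, 2 were at least 2-fold apart in astrocytes, Wwc1 higher and Yap1 lower, beside 30.1% of all genes counted (17.3% higher and 12.8% lower). The median over the members was -0.38 by TMM and -0.09 by library size alone, each below that of all genes on the same scale. Since the members were chosen on measured values, nothing is read from this. Wwc1 was the member in which the NSC and the astrocyte values both lay away from 0 in opposite directions by over 1.5-fold. The tables were made with different tools, and the difference between the cell types was not tested.

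**Figure D2:**
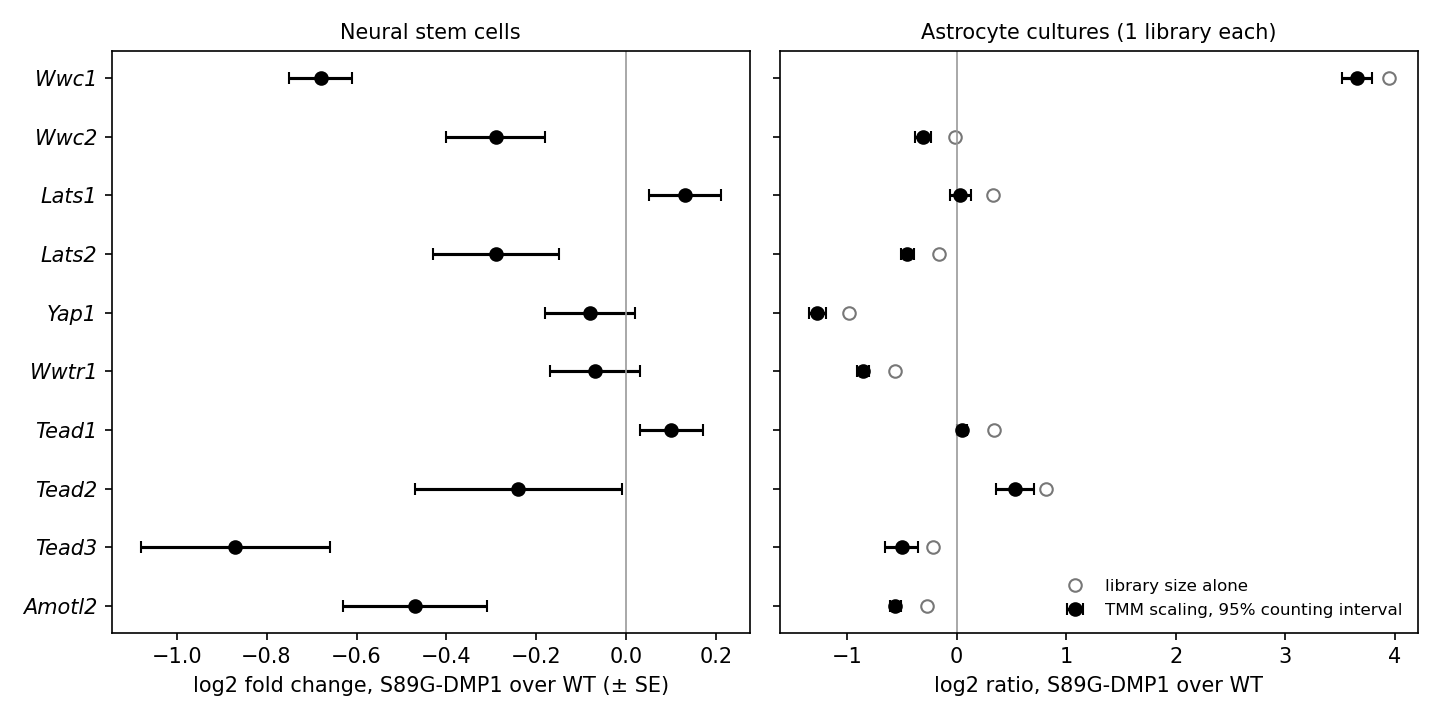
Log2 difference of S89G-DMP1 over WT for the 10 genes in NSCs (left, ± SE of the fit, 3 libraries per genotype) and in astrocyte cultures (right, 1 library per genotype, filled points by TMM with 95% counting intervals, open points by library size alone). Wwc1 lies at -0.68 in NSCs and at 3.65 in astrocytes, and Yap1 at -0.08 and -1.27; the 2 panels have different scales.

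Levels of different genes were compared per length. In WT NSCs, Wwc1 led the 10 genes with 42.4 ± 3.95 CPM per kb of exon (SD, n = 3). Tead1 (16.4 ± 1.33), Lats1 (15.2 ± 1.33) and Wwtr1 (13.4 ± 1.01) came next, each with a range that overlapped that of its neighbour. Yap1 (6.84 ± 0.219) and Lats2 (5.11 ± 0.208) followed, each apart from the gene above and below it. Amotl2 (4.41 ± 0.207) and Wwc2 (3.99 ± 0.588) overlapped, as did Tead3 (2.58 ± 0.0817) and Tead2 (2.49 ± 0.381) at the end of the order. In S89G-DMP1 NSCs Wwc1 still led, at 26.6 ± 0.360 CPM per kb, above Tead1 at 17.6 ± 1.46, and Tead3 was last at 1.40 ± 0.294, below Tead2 at 2.12 ± 0.299. In the mutant the neighbours with overlapping ranges were Tead1 and Lats1 (16.6 ± 0.529), Wwc2 (3.27 ± 0.198) and Amotl2 (3.17 ± 0.891), and Amotl2 and Tead2. The deposited TPM, which are also per length, gave another order below the top: in WT NSCs Wwc1 (121 ± 15.6) and Tead1 (51.1 ± 6.20) still led, but Tead2 (44.0 ± 2.86) came next and Yap1 (42.2 ± 0.982) stood above Wwtr1 (34.0 ± 2.71). On that scale too Tead3 was last (14.7 ± 3.69, all SD, n = 3).

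In the WT astrocyte library Wwc1 was the last of the 10 genes, with 18.1 FPKM, just below Lats1 with 19.7 FPKM. Amotl2 led that library with 279 FPKM, ahead of Tead1 (184), Lats2 (162), Yap1 (146) and Wwtr1 (107), while Wwc2, Tead2 and Tead3 lay between 27.0 and 29.9 FPKM. In the mutant astrocyte library Wwc1 led with 278 FPKM, ahead of Tead1 (233) and Amotl2 (232), and Yap1 and Wwtr1 were at 74.1 and 72.1 FPKM. With 1 library each, no spread is known for these orders. Between the cell types the balance of the kinases also differed: per length, Lats1 held 73.4% to 82.2% of the summed level of Lats1 and Lats2 in the 6 NSC libraries and 10.8% and 14.5% in the WT and mutant astrocyte libraries. The share of Lats1 in NSCs was 66.8% to 76.7% by TPM. These shares were set across tables that were counted and scaled separately, and they were not tested.

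**Figure D3:**
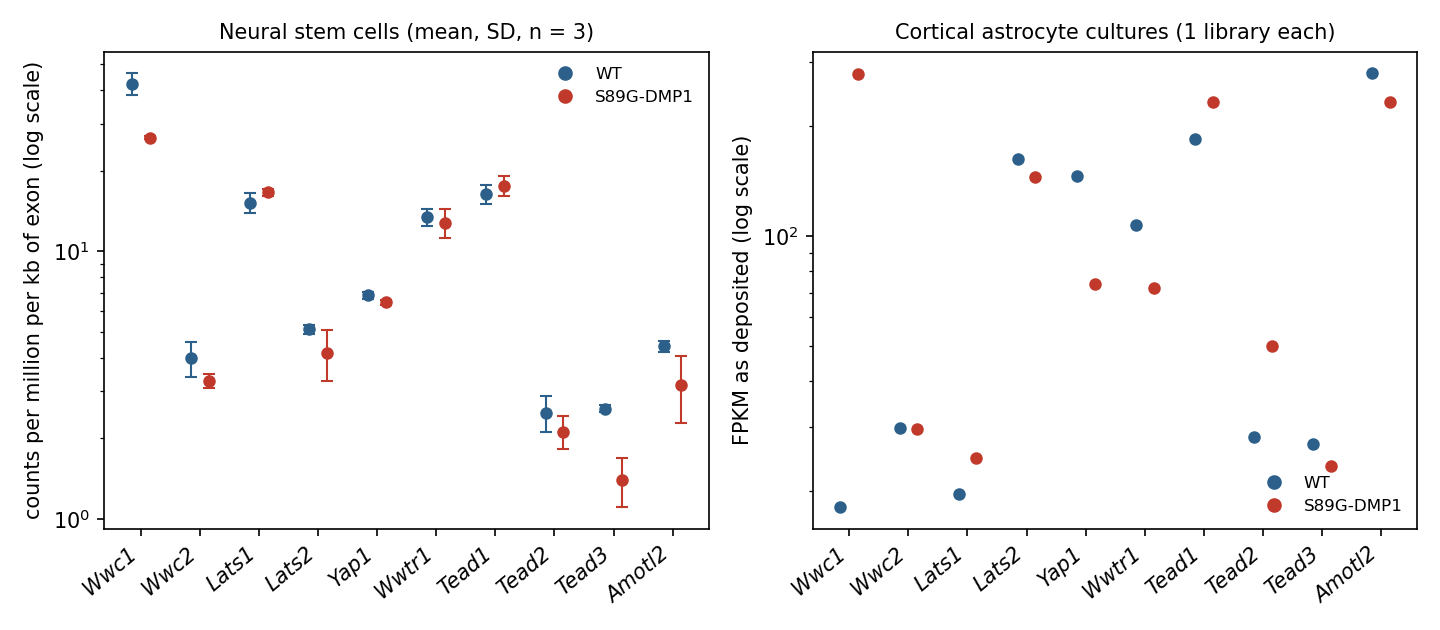
Level per length of the 10 genes on log axes, in NSCs as CPM per kb of exon (left, mean and SD over 3 libraries) and in astrocyte cultures as the deposited FPKM (right, 1 library per genotype), WT in blue and S89G-DMP1 in red. Wwc1 is the highest gene in both NSC groups and in the mutant astrocytes (278 FPKM) and the lowest in the WT astrocytes (18.1 FPKM).

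The genes whose pattern over the 6 NSC libraries was most like that of Wwc1 were found by the root mean square difference between log2 CPM values centred on each gene's mean, among 10126 genes compared. The nearest was Fbxl20, part of a ubiquitin ligase, at 0.031, followed by Spon1, an extracellular matrix protein (0.045), Shd (0.046), Hdac5, a histone deacetylase (0.052), and Tnc, the matrix glycoprotein tenascin C (0.062). Fbxl20 was at 53.1, 63.3 and 54.3 CPM in WT and at 37.1, 37.2 and 36.5 CPM in S89G-DMP1 NSCs. Like Wwc1, it was highest in WT replicate 2 and nearly equal in the 3 mutant libraries. Tnc, the most abundant of the 5, was at 4470, 4870 and 4730 CPM in WT and at 3110, 3040 and 2870 CPM in S89G-DMP1. The likeness is a description over 6 libraries that share 1 genotype contrast.

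Of 91 other genes of the pathway, 72 passed the filter on low counts in NSCs and 17 of these changed, 6 higher and 11 lower (23.6%, beside 15.8% of all tested genes), with a median log2 fold change of 0.01. The count was 11 without S89G-DMP1 replicate 1, 11 without S89G-DMP1 replicate 2, 10 without S89G-DMP1 replicate 3 and 11 without WT replicate 3, and 8 with DESeq2. The lists of these genes were chosen with earlier results of these data known, so that their shares are given as a description. Map4k4, Fat1, Llgl1, Csnk1e and Ywhae, which follow, were chosen for mention after their values were seen, to complete the counts of their lists.

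Of 17 upstream kinases and core scaffolds, 16 were tested in NSCs and 2 rose (12.5%, beside 15.8% of all tested genes). Mob1a, the LATS cofactor, rose from 104, 98.3 and 87.9 CPM in WT to 112, 114 and 122 CPM (log2 fold change 0.27 ± 0.08, SE, edgeR adjusted p = 0.0160), and Map4k4, a kinase that activates LATS, by 0.13. Map4k4 lost its call without S89G-DMP1 replicate 1 (0.14) or 2 and WT replicate 1 or 2 (0.12 in each of these 3). The call for Mob1a was lost without S89G-DMP1 replicate 3 (0.23), without WT replicate 3 (0.20) and with DESeq2 (0.27, DESeq2 adjusted p = 0.194). With any single library left out, or with DESeq2, the list had 1 call. The MST kinases Stk4 (0.16 ± 0.10, SE) and Stk3 (0.16 ± 0.17), and Sav1 (0.02 ± 0.11) did not pass.

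Among 22 membrane, junction and polarity genes, 17 were tested and 5 passed, 3 higher and 2 lower (29.4%). The Fat and Dachsous genes encode large cadherins that face each other across cell borders and feed into the pathway, and of these Dchs2 rose, Dchs1 and Fat1 fell, and Fat3 (0.07 ± 0.08, SE) and Fat4 (-0.10 ± 0.09) did not pass. Dchs2 rose from 1.69, 2.72 and 3.99 CPM in WT to 8.85, 10.7 and 10.4 CPM in S89G-DMP1 (log2 fold change 1.81 ± 0.32, SE, edgeR adjusted p = 2.0e-05). Dchs1, its more abundant relative, fell from 192, 201 and 200 CPM to 137, 126 and 126 CPM (-0.61 ± 0.07, edgeR adjusted p = 1.6e-10), and Fat1 fell by 0.18, a call lost without S89G-DMP1 replicate 3 (-0.14). The groups of the 3 genes that passed did not overlap. Amot, an angiomotin like Amotl2, rose where Amotl2 lay lower, from 37.1, 38.1 and 39.9 CPM to 52.2, 54.8 and 54.5 CPM (0.49 ± 0.11, edgeR adjusted p = 1.09e-03), and the polarity gene Llgl1 rose by 0.19. Llgl1 lost its call without S89G-DMP1 replicate 1 (0.20) or 2 (0.17), without WT replicate 1 (0.13) and with DESeq2. Nf2, the tumour suppressor that acts beside WWC1, was at 0.12 ± 0.07 and did not pass. With DESeq2, Amot missed the threshold (adjusted p = 0.0528).

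Of 16 kinase inhibitors, STRIPAK phosphatase subunits and RASSF genes, 13 were tested and 2 fell (15.4%). They were Rassf1, an MST-binding scaffold, at -0.71 ± 0.24 (SE, edgeR adjusted p = 0.0353), and Limd1, a LIM protein that restrains LATS, at -0.26 ± 0.09 (edgeR adjusted p = 0.0363). Rassf1 was lost without S89G-DMP1 replicate 2 (-0.63) or 3 (-0.70), without WT replicate 2 (-0.56) or 3 (-0.74), and with DESeq2 (-0.71, DESeq2 adjusted p = 0.36). Limd1 was lost without any single library other than WT replicate 2, at -0.22 to -0.27. It was also lost with DESeq2 (DESeq2 adjusted p = 0.318) and without the filter on low counts (edgeR adjusted p = 0.0776), at -0.25 in both. Among 11 retention and turnover genes 10 were tested and 2 passed (20%). Ywhae, an adaptor that holds phosphorylated YAP in the cytoplasm, rose by 0.17 while the kinase gene Csnk1e fell by 0.21. The call for Csnk1e was lost without any single library other than WT replicate 2 (-0.18 to -0.21). It was also lost with DESeq2 and without the filter on low counts (edgeR adjusted p = 0.0536). Of 5 further TEAD partners only Vgll4, a TEAD cofactor that competes with YAP, was tested (0.05 ± 0.07), and Tead4 averaged under 1 CPM in both genotypes (0.263 in WT).

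Among the YAP/TAZ-TEAD target genes, every one that changed in NSCs was lower with the mutation. Of 20 listed, 15 were tested, 6 fell and 0 rose (40% passed, beside 15.8% of all tested genes), with a median log2 fold change of -0.16. This list too was chosen with earlier results of these data known, so that the share is given as a description. Tgfb2, a growth factor, fell from 76.3, 69.9 and 84.7 CPM in WT to 35.0, 39.8 and 34.1 CPM in S89G-DMP1 (-1.08 ± 0.11, SE, edgeR adjusted p = 4.5e-12). Crim1, a membrane protein that binds BMPs, fell from 57.3, 52.1 and 49.5 CPM to 32.4, 23.5 and 28.5 CPM (-0.91 ± 0.13, edgeR adjusted p = 8.0e-08). Igfbp3, which binds insulin-like growth factors, fell from 1084, 1119 and 1109 CPM to 717, 673 and 700 CPM (-0.66 ± 0.05, edgeR adjusted p = 7.7e-18). In these 3 genes the groups were well apart, and no library left out changed the call.

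The other three target genes that fell were less firm. Ccn1, a matricellular protein and a textbook target of YAP, was at 7.16, 10.1 and 8.39 CPM in WT and at 4.21, 4.28 and 5.21 CPM in S89G-DMP1 (-0.90 ± 0.30, SE, edgeR adjusted p = 0.0271). It missed the threshold without S89G-DMP1 replicate 1 (-0.84) or 2 (-0.86) and without WT replicate 2 (-0.76) or 3 (-0.92). Myof, a membrane repair protein, fell by 1.34 ± 0.41 on the log2 scale (edgeR adjusted p = 0.0146), and missed it without S89G-DMP1 replicate 1 (-1.09) or 3 (-1.32) or WT replicate 2 (-1.22). Arhgef17, a RhoA exchange factor, fell by 0.41 ± 0.11 (edgeR adjusted p = 4.26e-03), and missed it without S89G-DMP1 replicate 3 or WT replicate 3, at -0.34 in both. The count of targets that fell was 4 without S89G-DMP1 replicate 1, S89G-DMP1 replicate 3, WT replicate 2 or WT replicate 3. It was 3 with DESeq2, which did not call Ccn1, Myof or Arhgef17. Ccn2 was too low to test, with 4, 4 and 7 counts in WT and 1, 2 and 1 in S89G-DMP1, and Ankrd1 was at 0 in all 6 NSC libraries, where 3 counts is the most that a count of 0 allows in each.

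In astrocytes 87 of the 91 genes reached 10 counts in either library, and 25 of them were at least 2-fold apart, 10 higher and 15 lower in the S89G-DMP1 library (28.7%, beside 30.1% of all genes). Their median log2 ratio was -0.10 by TMM and 0.19 by library size alone, below the median of all genes on each scale, and the split became 13 higher and 11 lower. Of the 20 target genes, 12 were at least 2-fold apart, 3 higher and 9 lower by TMM and 4 higher and 7 lower by library size, with a median of -0.62 or -0.33.

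The targets went to both ends of the scale in astrocytes. Ankrd1, a textbook target of YAP, had 21 counts in the mutant and 806 in the WT library (log2 ratio -5.31, counting interval -6.15 to -4.83), and Ccn2, which encodes a matricellular protein, had 6376 and 27870 (-2.31). The transcription factor gene Foxf2 had 42 and 1579 counts (-5.35), and Ccdc80 had 1503 and 5758 (-2.12). Ccn1, in contrast, had 12229 counts in the mutant and 9933 in the WT library (0.11, or 0.41 by library size). Igfbp3 had 4616 and 225 counts, a log2 ratio of 4.16, which is opposite to its fall in NSCs. The fibroblast markers Dcn, Col3a1 and Pdgfra lay lower in the mutant library beside these targets, with 2826, 2845 and 100 counts against 10196, 14756 and 1755, and their part was not tested.

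**Figure D4:**
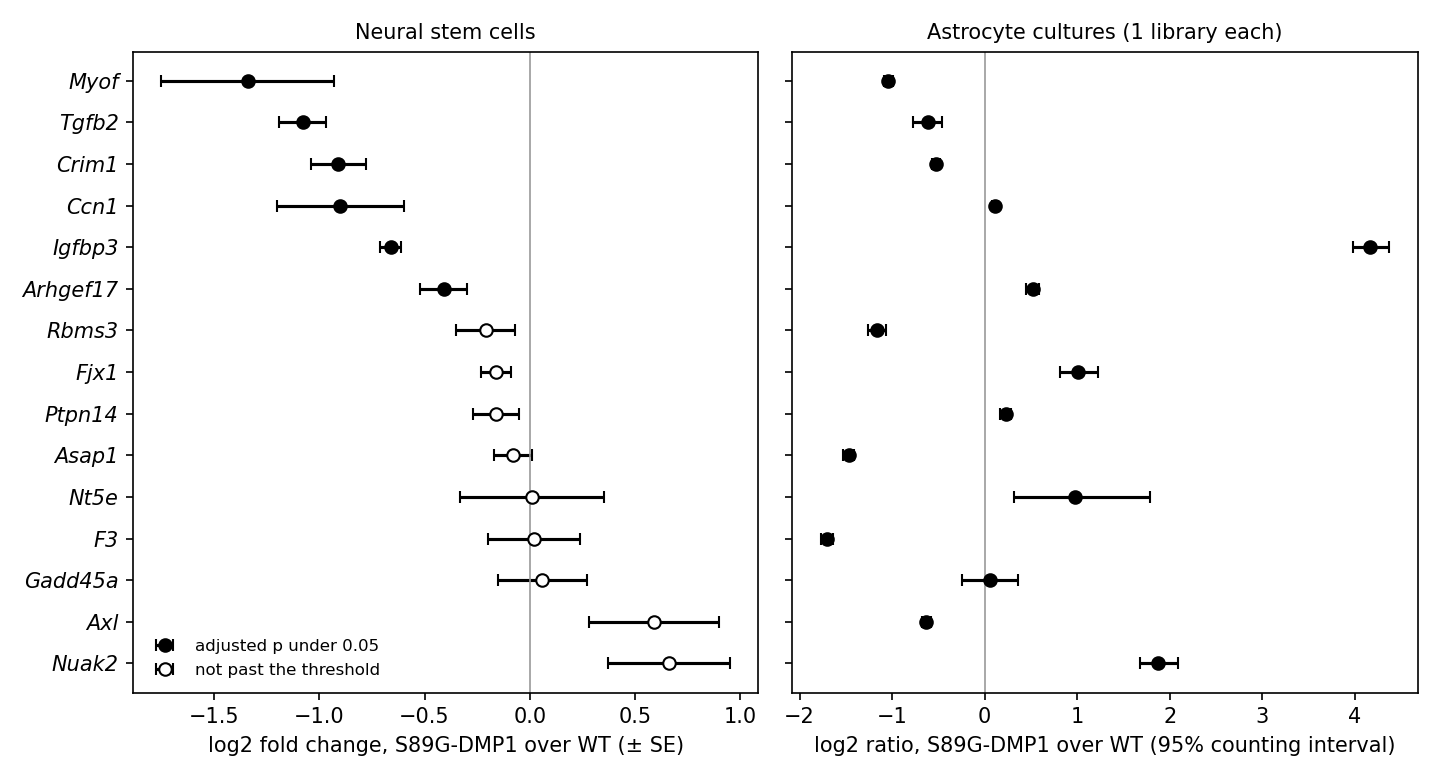
Log2 difference of S89G-DMP1 over WT for the 15 YAP/TAZ-TEAD target genes tested in NSCs (left, ± SE, 3 libraries per genotype, filled points past an adjusted p of 0.05) and the same genes in astrocyte cultures (right, TMM scaling, 95% counting intervals, 1 library per genotype). The 6 filled points all lie below 0 in NSCs, from -1.34 for Myof to -0.41 for Arhgef17, while Igfbp3 lies at 4.16 in astrocytes.

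In astrocytes, 20 membrane, junction and polarity genes were counted. By TMM 4 of them (20%) lay 2-fold apart or more, all higher in the mutant, beside 30.1% of all genes. By library size alone 6 did, again all higher, beside 3487 higher and 1515 lower of all 15680 genes counted. Crb2, a polarity protein of apical membranes, had 1458 counts in the mutant and 21 in the WT library (5.81), the cadherin gene Fat3 had 1263 and 86 (3.66), Dchs1 had 1738 and 151 (3.32), and, from the kinase list, Tnik had 502 and 82 (2.40). Crb2 was scarce in NSCs, at 0.134 CPM in S89G-DMP1 and 0.673 CPM in WT, and Fat3 did not pass there. Rassf6, at the other end, had 11 and 50 counts (-2.17).

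In the lists with few genes past 2-fold, the members not yet given were chosen for mention after their values were seen. Among the kinases and scaffolds, Map4k1 (1.86) lay higher and Sav1 (-1.12, or -0.83 by library size) lower. Crb3 lay higher on 17 counts against 1 (2.55, counting interval 1.23 to 9.29). Of the RASSF genes, Rassf4 was higher (2.18) and Rassf3 (-1.79) and Rassf5 (-1.42) were lower. The TEAD cofactor Vgll3 (-1.33) and Sfn, an adaptor that binds phosphorylated YAP (-1.17, or -0.88 by library size), were lower too.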

How the data were processed

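RNA sequencing of 2 astrocyte and 6 NSC libraries was examined. For astrocytes the authors deposited raw read counts per gene and FPKM values, and for NSCs raw counts and TPM values. Per the labels, Bowtie2 2.0.6 and TopHat2 2.0.9 were used for astrocytes. HISAT2, featureCounts, StringTie and GRCm38 are named in the submitters' processing notes. The deposited FPKM values equal counts divided by the library total and 1 length per gene (18713 of 18713 genes within 1e-9), and 17 NSC genes with at least 100 counts in each library are listed at 0 TPM, so counts were used throughout and TPM or FPKM as alternatives. Of the 152 listed genes all were matched, through GENCODE symbols.

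The tools were edgeR 4.0.16, DESeq2 1.42.0 and limma 3.58.1 under R 4.3.3. For NSCs, filterByExpr removed low genes, TMM gave the scale, and genotype was tested by edgeR's quasi-likelihood method at a Benjamini-Hochberg adjusted p of 0.05, a procedure tested on simulated data. CPM values are counts scaled to the TMM-adjusted library total. For astrocytes no test was made: log2 ratios of TMM-scaled CPM (prior count 2) were taken where either library held 10 counts or more, with exact binomial 95% intervals. In NSCs counting error limits genes with few counts.

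The members and gene lists were chosen with earlier results of these data known. Named besides the 10 members were Dmp1, Ccn1, Ccn2 and Ankrd1, the 12 pathway genes with the largest change past the threshold in NSCs, the 5 highest and 5 lowest ratios in astrocytes among pathway genes with at least 50 counts, the 5 genes most like Wwc1 (of those with a mean of at least 20 counts), and markers whose summed level differed. The oligodendrocyte lineage markers, also listed, summed to 3492 to 3760 CPM in WT and 3644 to 3811 in S89G-DMP1 NSCs, and to 21.1 and 267 CPM in WT and S89G-DMP1 astrocytes. The neural stem cell and neuron markers summed to 833 and 98.2 CPM in WT and to 2156 and 312 CPM in S89G-DMP1 astrocytes. Alternatives were DESeq2, RLE factors, library size alone, other filters, limma on deposited TPM (log2, pseudocounts of 1 and 0.1), deposited FPKM with the same pseudocounts, 0.5 as the prior count, the replicate number as a block, and each NSC library left out in turn.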

Additional observations from a re-analysis of the deposited data

Results flagged for a closer look

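Wwc1, Dchs1 and Igfbp3 were flagged for NSC and astrocyte differences in opposite directions. All 3 mutant NSC libraries lay below all 3 WT libraries, while the mutant astrocyte library lay above the WT one by over 2-fold. Tnik and Fjx1 met this as well, with smaller NSC differences (-0.10 and -0.16), as did Dmp1 and the markers Syt1 and Gap43. Beside these, 8.76% of tested genes passed as lower in NSCs and 17.3% of counted genes lay 2-fold higher in astrocytes. The share of all genes that met both was not counted, and Wwc1 was chosen with its difference known. For Wwc1 the log2 difference was 3.65 in astrocytes and -0.68 in NSCs. Dchs1 was at 3.32 in astrocytes and -0.61 in NSCs, and Igfbp3 at 4.16 and -0.66. The difference between the cell types was not tested, since the astrocytes have 1 library per genotype and the tables were made with different tools. The astrocyte values rest on a WT library in which the astrocyte markers Slc1a3 and Aqp4 had 8 counts each, and the part of this in the 3 ratios was not tested.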

How the results depend on the processing

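The number of genes that changed in NSCs was 1773, and it was 735 with DESeq2, 145 with limma on log2(TPM + 1) and 116 with limma on log2(TPM + 0.1). It ranged from 1363 to 1659 with each library left out. For the other Hippo pathway genes the count was 17, and 8, 5 and 3 under the same 3 settings, and it ranged from 10 to 14 with each library left out. As a description, since this contrast chose the members, Wwc1 in NSCs was at -0.71 with limma on log2(TPM + 0.1) and between -0.72 and -0.60 over all 14 alternatives, Tead3 between -0.99 and -0.71, and Amotl2 between -0.74 and -0.26. The number of members past the threshold was 3, with 1 left by DESeq2, 1 by limma on log2(TPM + 1) and 0 by limma on log2(TPM + 0.1). In astrocytes the ratio of Wwc1 was 3.94 by library size alone, 3.87 with log2(FPKM + 1) and 3.94 with log2(FPKM + 0.1). The median of the other pathway genes turned from -0.10 to 0.19 by library size alone, 0.17 with log2(FPKM + 1), 0.19 with log2(FPKM + 0.1) and 0.02 without the filter. Of all genes past 2-fold, 2713 were higher and 2010 lower by TMM, and 3487 and 1515 by library size. The cause of these changes was not tested.

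The replicate numbers did not pair the NSC libraries, since same-numbered libraries deviated from their group means with correlations of 0.028, -0.01 and -0.017. The fit with the replicate number as a block called 1845 genes and 18 other pathway genes, and left Wwc1 at -0.67. Depth limits Ccn2, Foxf2 and Tead4 in NSCs, which were too low to test.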
